A study of Mus musculus with 3 samples.

Results

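The Kcnj6 and Nell2 nuclei were 953 of the 12549 nuclei sequenced from differentiated mouse neurospheres. A nucleus belonged to them when the genes Kcnj6, Nell2, Fstl5 and Disp3 together had at least 4 unique molecular identifiers (UMIs, each standing for 1 captured RNA molecule). Nuclei were left out when the neuronal genes Rbfox3, Dcx, Gad2 and Dlx6os1 together reached 3 UMIs, when Bcas1, Gpr17 and Enpp6 of committed oligodendrocyte precursors reached 8, or when Gpr149, Ets1, Kit and Etv1 reached 3. They were also left out at 3 UMIs of the astrocyte genes Slc7a11, Slc6a11 and Atp13a4 or of the division genes Top2a, Mki67, Kif11 and Knl1. The working label for these nuclei was immature neuron-like, and the question put to the data was whether they looked neuronal or precursor-like.

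The cultures came from neural stem cells of the subventricular zone of newborn C57BL/6 pups, grown as clonal neurospheres and then differentiated. Each of the 3 libraries (control, CBP-ablated and p300-ablated) was 1 sample of about 15 pooled cultures at 15 days in vitro, sorted for the red reporter, with 16000 nuclei loaded. The CBP-ablated culture was Crebbp f/f and the p300-ablated culture Ep300 f/f, each given a lentivirus with Cre fused to mCherry, while the control received an RFP virus and its mouse line is not stated. The labels name tamoxifen as the treatment of all 3 groups, and recombination of the Crebbp allele leaves a truncated CBP protein.

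Kcnj6 encodes a potassium channel subunit that is opened by G proteins and is best known from neurons, and Nell2 encodes a secreted ligand of the axon guidance receptor Robo3. Fstl5 encodes a secreted follistatin-like protein and Disp3 a relative of the protein that releases Hedgehog. Oligodendrocyte precursors, which express Pdgfra, Cspg4, Olig2 and Sox10, also carry ion channels and glutamate receptors and receive synapses, so a gene known from neurons does not by itself mark a neuron. CBP and p300 are related acetyltransferases that act on histones and serve as transcriptional co-activators.

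Of the 4 genes that chose the nuclei, Nell2 carried most of the signal. It gave 63.3% of their summed UMIs in control, 67.8% with CBP ablated and 63.2% with p300 ablated, and 91.4%, 90.6% and 91.5% of the nuclei had at least 1 Nell2 UMI. Kcnj6 was seen in 31.5%, 17.9% and 30.1% of the nuclei, Fstl5 in 44.2%, 40.6% and 25.6%, and Disp3 in 35.3%, 24.5% and 44.1%. Most of the nuclei were therefore chosen through Nell2, and most had no Kcnj6 UMI. As CPM, the UMIs of a gene scaled to a common total per class of nuclei, Kcnj6 stood at 246, 81.3 and 239 in the same order, Nell2 at 1297, 1099 and 1083, Fstl5 at 293, 286 and 126, and Disp3 at 213, 155 and 267. These levels were set by the choice of nuclei and are given as a description. In GRCm38 the genes lie at chr16:94748636-94997701 (Kcnj6), chr15:95075230-95528559 (Nell2), chr3:76074270-76710019 (Fstl5) and chr4:148240264-148287965 (Disp3).

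The minimum of 4 UMIs cut through a continuous range. In control 81 nuclei had exactly 4 UMIs and 165 nuclei, left outside, had 3. The CBP-ablated library had 38 and 58 such nuclei and the p300-ablated library 155 and 253. Lhfpl3, a tetraspan membrane gene strong in oligodendrocyte precursors, stood at 13342, 11493 and 13248 CPM just outside and at 12883, 9745 and 13722 CPM just inside. The median sum was 6, 5 and 6 UMIs and the highest 46, 29 and 30. Of the nuclei with exactly 4 UMIs 22.2%, 7.89% and 26.5% lay in the cluster led by Kcnj6, and 66.0%, 28.9% and 53.6% of those with 6 or more. All 4 genes of the minimum were among the leading genes of that cluster. A rise with their sum was therefore built in and does not show that the nuclei differed in kind.

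The nuclei were of ordinary depth. Their median was 3519.5 UMIs in control, 3656.5 with CBP ablated and 4065 with p300 ablated, where all nuclei had medians of 3219, 4016 and 3902.5. In sum they held 1043040, 405719 and 2343515 UMIs, so values of the CBP-ablated library were the least precise. A doublet score marked 5.82%, 3.77% and 3.96% of them, against 3.91%, 2.42% and 3.72% of all nuclei. In a microglia-like cluster, led by Pik3ap1, Adgre1 and Ptprc and with medians of 1154, 1022.5 and 1760 UMIs, 1 of 189, 1 of 78 and 2 of 55 nuclei met the rule. Few barcodes were shared by any pair of libraries (3, 7 and 1, of which 0, 2 and 1 belonged to a Kcnj6 and Nell2 nucleus). A cluster of 1317 nuclei led by the transporter Slc7a11 was found in control alone, so the control library differed from both others in make-up.

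Other classes of nuclei served for comparison within each library. Oligodendrocyte precursor nuclei had at least 4 UMIs of Pdgfra, Cspg4 and Megf11 (618, 269 and 1062 nuclei), neuron nuclei at least 3 of Rbfox3, Dcx, Gad2 and Dlx6os1 (99, 128 and 105), and Gpr149 nuclei at least 3 of Gpr149, Ets1, Kit and Etv1 (270, 232 and 330). Precursor nuclei also had to stay under the minimums for Kcnj6 and Nell2, neuron and Gpr149 nuclei, and Gpr149 nuclei under that for neuron nuclei. All classes had the same limits on committed precursor, astrocyte and division genes as the rule. All were disjoint from the Kcnj6 and Nell2 nuclei. The 22 genes of the rule were kept out of all counts. Pdgfra, Cspg4 and Megf11 were kept out of those against precursor nuclei only. With 1 library per condition no test was possible and nuclei are not replicates. Genes were counted when their CPM differed over 2-fold in the same direction in all 3 libraries, and all intervals are 95% intervals that cover counting error only.

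The genes of oligodendrocyte precursors were at high levels in the Kcnj6 and Nell2 nuclei. Lhfpl3 had 13075 CPM in control, and 10771 and 13492 CPM with CBP or p300 ablated. Precursor nuclei had 14126, 14238 and 15088 CPM and neuron nuclei 5359, 1909 and 6114. Ptprz1, a receptor phosphatase of precursors and other glial progenitors, had 3958, 3497 and 3903 CPM, close to the 3815, 4232 and 4028 of precursor nuclei and above the 1524, 585 and 1859 of neuron nuclei. Olig2, the transcription factor of the oligodendrocyte lineage, had 94.9, 81.3 and 84.1 CPM against 99.7, 112 and 104 in precursor nuclei and 50.5, 16.8 and 43.8 in neuron nuclei. Sox10, which acts with Olig2, was lower than in precursor nuclei (189, 143 and 244 against 315, 342 and 376 CPM) but still above neuron nuclei (107, 35.8 and 150). The precursor minimum of 4 UMIs of Pdgfra, Cspg4 and Megf11 was met by 45.9%, 50.9% and 66.1% of the nuclei, and by 20.9%, 20.3% and 39.5% of all other nuclei.

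**Figure D1:**
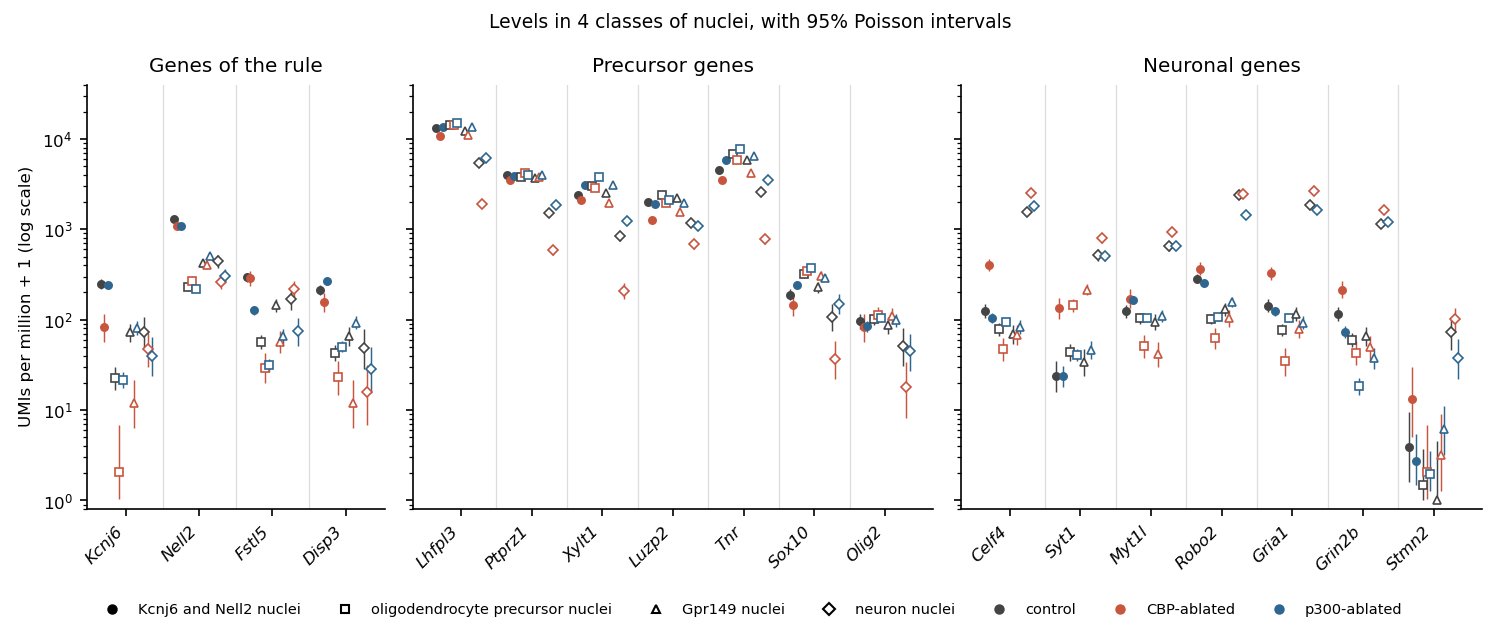
Level of single genes (CPM plus 1, log axis) in the Kcnj6 and Nell2, oligodendrocyte precursor, Gpr149 and neuron nuclei of each library, with 95% Poisson intervals for counting error. The Kcnj6 and Nell2 nuclei lie beside precursor nuclei for Lhfpl3 and Ptprz1, and Celf4 is highest in neuron nuclei in all 3 libraries.

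Across the list of precursor genes the picture was the same. Of 14 tested against neuron nuclei, all 14 were higher in every library and 3 (Lhfpl3, Ptprz1 and the xylosyltransferase gene Xylt1) were over 2-fold higher in all 3. Of all 5977 genes tested, 1766 were higher by some amount in every library, 2.98% were over 2-fold higher and 4.37% over 2-fold lower. The median log2 ratio of the list was 0.88, 2.29 and 0.95, where all genes had 0.03, 0.07 and 0.08. Against precursor nuclei none of 13 tested was past 2-fold, and 10 were lower by some amount in every library, with medians of −0.25, −0.46 and −0.30. There, 1376 of 8217 genes were lower by some amount in every library, 0.487% were over 2-fold higher and 0.0243% over 2-fold lower. Since the rule kept the genes of neuron nuclei low, part of any difference from that class was built in by the choice.

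Neuronal genes were mostly low. The RNA-binding protein gene Celf4 had 125, 407 and 104 CPM against 1568, 2523 and 1792 in neuron nuclei. Syt1, the calcium sensor of synaptic vesicles, had 23.0, 133 and 22.6 against 520, 791 and 509 CPM, and Stmn2, a growth cone protein, was represented by 3, 5 and 4 UMIs in all. Gad1, a GABA synthesis enzyme, had 28.8, 32.0 and 24.3 CPM against 149, 200 and 177. Precursor nuclei had 77.0, 46.5 and 93.2 CPM of Celf4, so the excess of the Kcnj6 and Nell2 nuclei over them was largest in the CBP-ablated library. Tubb3, the tubulin commonly stained to show neurons, and Slc17a6, a vesicular glutamate transporter, were listed at 0 in the Kcnj6 and Nell2 nuclei, and Tubb3 was at 0 in all nuclei, so it told nothing about them.

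Of 16 pan-neuronal genes tested against neuron nuclei, 7 were over 2-fold lower in all 3 libraries (Stmn2, Snap25, Syt1, Celf3, Celf4, Myt1l and Rbfox1) and none was over 2-fold higher. Of all 5977 genes tested there, 4.37% were over 2-fold lower and 2.98% over 2-fold higher. The median log2 ratio of the 16 genes was −1.03, −1.64 and −1.03. Against precursor nuclei none of 14 passed 2-fold either way, and the medians were −0.08, 0.08 and 0.01. Among genes of inhibitory neurons 2 of 3 were over 2-fold lower than in neuron nuclei (Gad1 and Adarb2), and among presynaptic release genes 4 of 13 (Unc13a, Syn3, Syt1 and Snap25). Neuron nuclei were chosen in part by Gad2 and Dlx6os1, so the inhibitory difference was partly built in. Glutamate receptor genes divided, with 5 of 13 over 2-fold lower (Gria1, Grik1, Grin1, Grin2a and Grin2b) and medians of −0.15, −0.04 and −0.04. The Robo receptors that guide axons were also lower, Robo2 at 284, 365 and 256 CPM against 2406, 2473 and 1431, as were Robo1 and Nell1, the paralog of Nell2. Against precursor nuclei, however, Robo2 was over 2-fold higher in all 3 libraries. It was 1 of 2 Nell and Robo genes tested there, where 0.487% of all genes were that much higher. The gate gene Kcnj6 had 1 related channel gene on the low side, Kcnj3, of 2 tested.

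**Figure D2:**
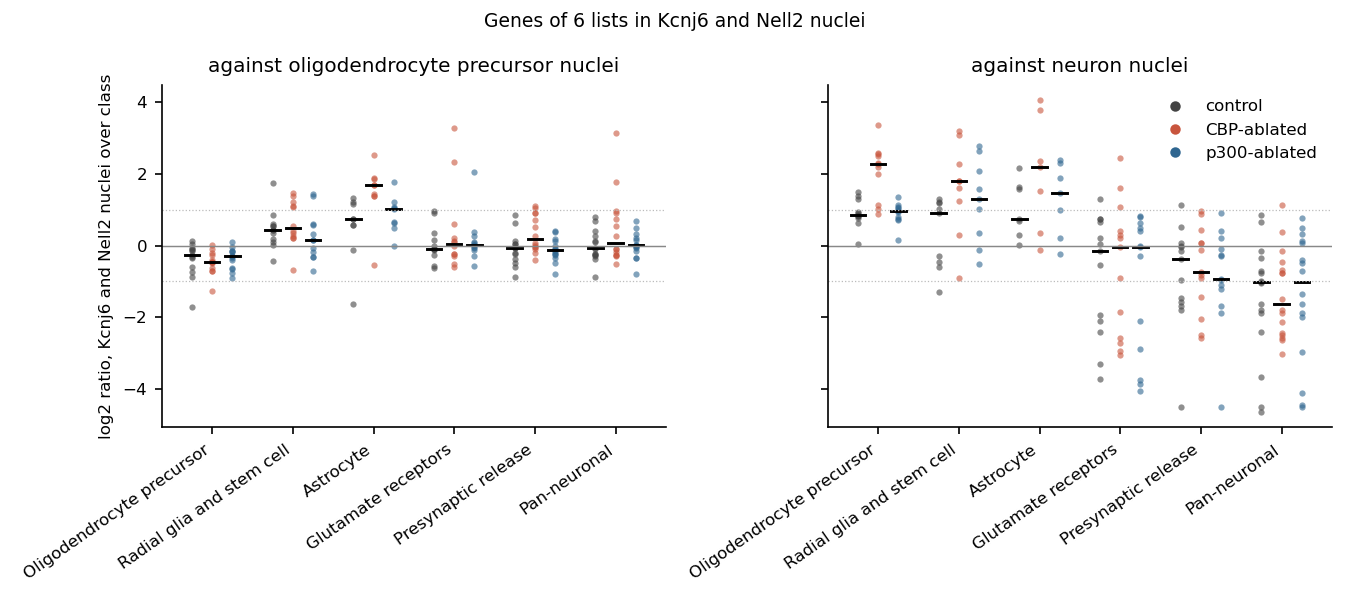
Log2 ratio of the genes of 6 lists in Kcnj6 and Nell2 nuclei over precursor nuclei (left) and neuron nuclei (right), with 1 point per gene and library, a bar at each list's median and dotted lines at 2-fold. Against neuron nuclei the medians of precursor genes (0.88, 2.29 and 0.95) lie above 0 and those of pan-neuronal genes (−1.03, −1.64 and −1.03) below.

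The neuron class was itself mixed. Of its nuclei 71.7% in control, 89.1% with CBP ablated and 61.9% with p300 ablated fell in the cluster led by Dlx6os1, and 25.3%, 8.59% and 36.2% fell in the 3 main clusters, led by Kcnj6, Gm2164 and Gpr149, which held most precursor nuclei (89.5%, 89.6% and 92.7%). Restricted to the cluster led by Dlx6os1, the differences widened: the log2 ratio of Lhfpl3 went from 1.29, 2.50 and 1.14 to 3.11, 3.66 and 4.09, and that of Celf4 from −3.65, −2.63 and −4.11 to −4.19, −2.78 and −4.93. Celf4 was itself among the leading genes of that cluster, and the restriction dropped the neuron nuclei of the 3 main clusters. Part of the widening was therefore built in by the choice.

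Single nuclei gave a similar division. The summed share of UMIs from 13 precursor genes had a median of 2.95% in the Kcnj6 and Nell2 nuclei of control, 2.70% in those of the CBP-ablated and 3.203% in those of the p300-ablated library. Precursor nuclei had medians of 3.39%, 3.22% and 3.68% and neuron nuclei 0.324%, 0.195% and 0.357%. Of the control nuclei 242 lay nearer to the precursor median than to the neuron median (82.9%, 78.1 to 87.0). The same held for 74 CBP-ablated nuclei (69.8%, 60.1 to 78.3) and 484 p300-ablated nuclei (87.2%, 84.1 to 89.9). The share from 21 pan-neuronal genes had medians of 0.269%, 0.210% and 0.260%, against 0.791%, 0.880% and 0.852% in neuron nuclei. Over 6205 genes the summed profile had a Pearson correlation of 0.973, 0.941 and 0.983 with precursor nuclei, 0.966, 0.930 and 0.981 with Gpr149 nuclei and 0.879, 0.843 and 0.896 with neuron nuclei. These correlations run across genes of 1 library, which are not replicates. Other values lay on the neuronal side, among them the excess of Robo2 over precursor nuclei given above. Robo2 was nevertheless below neuron nuclei in every library. Against all other nuclei none of 3 Nell and Robo genes tested was higher in every library. Of 3 neuroblast and neurogenic genes tested against precursor nuclei 2 were higher by some amount in every library, with medians of 0.34, 1.43 and 0.34, where 1557 of all 8217 genes were, and none passed 2-fold. Against all other nuclei, 12 of 18 pan-neuronal genes were higher by some amount in every library and 1 was lower, with medians of 0.64, 0.97 and 0.30, and precursor genes had 12 of 16 higher and 0 lower, with medians of 0.75, 1.13 and 0.48, where 1823 of all 13095 genes were higher and 3853 lower. By the share of precursor genes most of the nuclei, and by the summed profile each library's nuclei, lay nearer to precursor than to neuron nuclei. The rule left out nuclei with 3 or more UMIs of Rbfox3, Dcx, Gad2 and Dlx6os1, the genes that chose the neuron nuclei. Part of the distance from neuron nuclei was therefore built in, and it cannot by itself decide against the label of an immature neuron. A high share of precursor genes was not required by the rule. The nuclei are called here by the genes of their rule.

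Some genes set the Kcnj6 and Nell2 nuclei apart from precursor nuclei. One of the larger differences was in Lrig1, a membrane protein that limits signalling of the EGF receptor, at chr6:94604529-94700158. It had 365, 222 and 344 CPM against 69.1, 46.5 and 75.8, a log2 ratio of 2.40, 2.25 and 2.18. Egfr, the EGF receptor gene itself, had 464, 328 and 159 CPM against 138, 118 and 58.7. Both were more abundant in the Kcnj6 and Nell2 nuclei of every library. Ednrb, an endothelin receptor, had 251, 177 and 175 CPM against 99.2, 66.6 and 74.3. Unc5d, a receptor for netrins, had 115, 101 and 102 CPM against 45.4, 15.8 and 29.8.

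Genes usually listed for astrocytes and radial glia were among these differences. Of 9 astrocyte genes tested against precursor nuclei 3 were over 2-fold higher in all 3 libraries (the glutamate transporter Slc1a2, the bicarbonate transporter Slc4a4 and the glypican Gpc5), with list medians of 0.73, 1.68 and 1.03. Of all 8217 genes tested 0.487% were that much higher, and the medians of all genes were 0.004, −0.0005 and 0.014. Gpc5 had 2571, 836 and 2215 CPM against 1019, 230 and 955. Of 12 radial glia and stem cell genes 1 was over 2-fold higher, Egfr, with medians of 0.43, 0.48 and 0.15. Among the genes lower than in precursor nuclei was Prkcq, a protein kinase C, with 69.0, 96.1 and 75.1 CPM against 235, 206 and 193.

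Not all of the 40 genes over 2-fold higher than in precursor nuclei kept that excess when the nuclei were limited to the 3 main clusters. There 15 genes were over 2-fold higher, 14 of them shared with the 40, among them Lrig1, Egfr, Gpc5, Unc5d, Slc1a2 and Ednrb. Genes over 2-fold lower went from 2 to 13 in the 3 clusters, none of them shared with the 2. In the cluster led by Kcnj6 they numbered 38, 1 of them shared, where the CBP-ablated library had 19 nuclei. When the precursor nuclei were limited to the 3 clusters as well, 30 genes were higher, 22 of them shared with the 40, and 4 lower (Arsb, Bcas1os2, Cul7 and Pcsk5), none of them shared. With both limited, Lrig1 had log2 ratios of 2.47, 2.40 and 2.21 and Egfr of 1.70, 1.91 and 1.56. With only the Kcnj6 and Nell2 nuclei limited, Kcnmb2, a potassium channel subunit with 21.1, 54.2 and 20.9 CPM in all Kcnj6 and Nell2 nuclei, was left with 1, 0 and 4 UMIs. Its excess therefore came from nuclei outside the 3 clusters. Prkcq, at −1.70, −0.62 and −1.35, no longer passed 2-fold in the CBP-ablated library.

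Myelin genes were lower than in Gpr149 nuclei taken whole, but not than in those of the 3 main clusters. Of 5 oligodendrocyte genes tested 4 were over 2-fold lower in the Kcnj6 and Nell2 nuclei of all 3 libraries (Mbp, Mog, Mobp and Cldn11), with medians of −3.25, −2.34 and −2.82, while 0.523% of 7078 genes were that much lower and 0.0848% that much higher. Mbp, a main protein of the myelin sheath, had 15.3, 170 and 29.4 CPM against 223, 931 and 209. Mobp had 3.83, 19.7 and 2.56 CPM against 59.5, 251 and 31.6. The 3 main clusters held 84.4%, 74.6% and 85.8% of the Gpr149 nuclei. Those alone had 26.7, 133 and 34.6 CPM of Mbp, which gave log2 ratios of −0.80, 0.36 and −0.23. None of the 5 oligodendrocyte genes was then past 2-fold in all 3 libraries, with medians of 0.08, 0.16 and −0.30, and 60 genes were higher and 0 lower. The myelin difference therefore came from Gpr149 nuclei outside the 3 clusters. None of 15 precursor genes passed 2-fold, with medians of −0.15, −0.25 and −0.11. Over all nuclei of both classes Lrig1 was higher here too, with 137, 43.0 and 168 CPM in Gpr149 nuclei, and Gfap, an astrocyte filament gene, was the 1 of 8 astrocyte genes over 2-fold higher. Gfap lost that call with both classes limited to the 3 clusters, at 2.14, −0.42 and 0.98, the CBP-ablated value on 5 UMIs of the 52. Lrig1, at 1.57, 2.77 and 0.92, was higher there in every library but not past 2-fold with p300 ablated.

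Against all other nuclei of the library, Unc5d led the genes outside the rule, with 25.9, 28.2 and 26.1 CPM there. Sez6, a membrane gene of developing neurons, had 56.6, 34.5 and 52.9 CPM against 15.5, 10.8 and 21.05. The metabotropic glutamate receptor Grm5 had 2295, 1590 and 1935 CPM against 1070, 372 and 872. Nnat, one of the proposed markers, had 398, 340 and 351 CPM, but neuron nuclei had 446, 509 and 422 and precursor nuclei 325, 250 and 231. Dbx2, the other proposed marker outside the rule, had 200, 173 and 145 CPM, above the 149, 91.9 and 143 of precursor nuclei and the 77.2, 2.10 and 57.6 of neuron nuclei. Neither of the 2 was past 2-fold against precursor nuclei.

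The nuclei did not form 1 cluster. Of 13 clusters, the one led by Kcnj6 held 144 of them in control (49.3%), 19 with CBP ablated (17.9%) and 227 with p300 ablated (40.9%). A cluster led by Gm2164 and Tafa1, with Cspg4 among its leading genes, held 19.9%, 7.55% and 36.6%, and one led by Gpr149, with Megf11, held 16.1%, 36.8% and 12.4%. Together these 3 clusters held 85.3%, 62.3% and 89.9%. In the CBP-ablated library 11.3% lay in the cluster led by Dlx6os1 and 8.49% in the one led by the division genes Knl1 and Top2a, where control had 1.71% and 3.08%. The clusters led by Anxa3 or Cdc20b, the latter with Gfap, held 13.2% with CBP ablated, 5.14% in control and 6.13% with p300 ablated. The CBP-ablated library thus differed most in where its Kcnj6 and Nell2 nuclei lay. In the cluster led by Kcnj6 their Celf4 level was 56.5, 97.3 and 50.9 CPM and their Lhfpl3 level 13712, 12335 and 13766. Outside that cluster Celf4 stood at 195, 473 and 140 CPM.

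**Figure D3:**
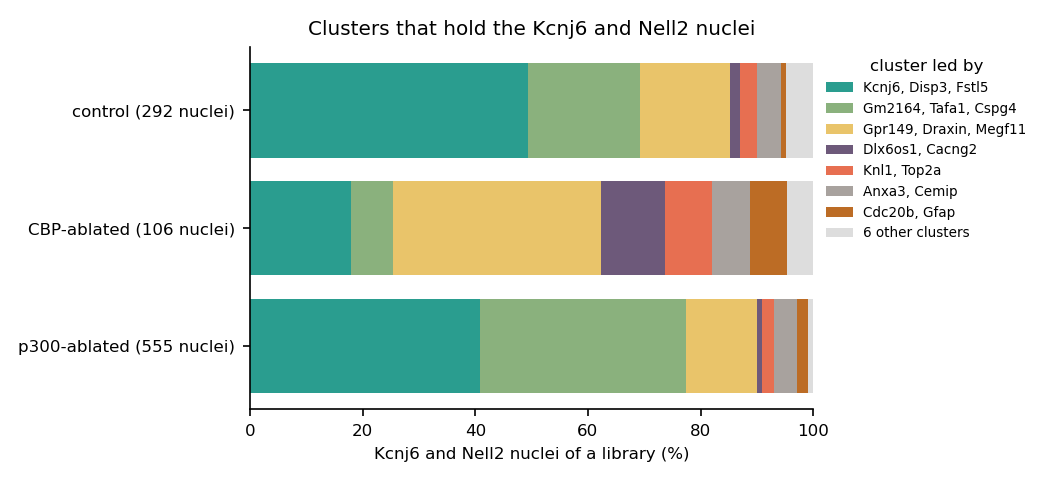
Share of the Kcnj6 and Nell2 nuclei of each library (percent) that lay in each cluster, clusters named by their leading genes. The cluster led by Kcnj6 held 49.3% in control, 17.9% with CBP ablated and 40.9% with p300 ablated.

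The share of Kcnj6 and Nell2 nuclei differed among the libraries. They were 292 of 4884 nuclei in control (5.98%, 5.33 to 6.68), 106 of 3017 in the CBP-ablated (3.51%, 2.89 to 4.23) and, with p300 ablated, 555 of 4648 (11.9%, 11.0 to 12.9). Set against control, the CBP-ablated share differed by −2.47 percentage points (−3.39 to −1.51) and the p300-ablated share by 5.96 points (4.82 to 7.11). Both comparisons use the same control library, and the differences were not tested. The order p300-ablated, control, CBP-ablated was the same among nuclei of at least 3000 UMIs, each thinned to 3000, at 10.1% of 3531, 6.10% of 2883 and 2.36% of 2371 nuclei. Among nuclei with fewer than 3 astrocyte UMIs the shares were 12%, 7.49% and 3.53%. The cluster led by Kcnj6, taken whole, was 6.18% of control, 0.961% of the CBP-ablated and 9.17% of the p300-ablated nuclei.

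**Figure D4:**
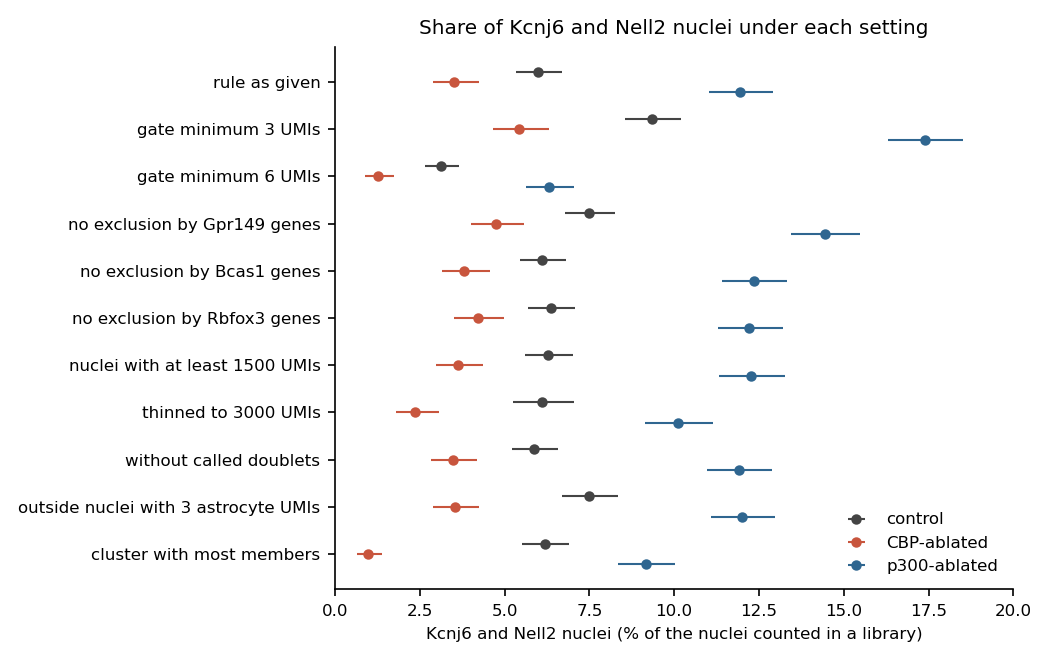
Kcnj6 and Nell2 nuclei as a percentage of all nuclei of each library under the rule and under 10 other settings, with 95% intervals for counting error. The p300-ablated library is highest and the CBP-ablated library lowest in every setting shown, the last of which takes the cluster led by Kcnj6 whole.

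Within the Kcnj6 and Nell2 nuclei, the CBP-ablated library was compared with control over the 2551 genes whose UMIs in the 2 libraries came to 100 or more. Of these 1.8% were over 2-fold higher and 1.37% over 2-fold lower, 46 and 35 genes. These counts depended on the genes, nuclei and scaling taken. With ratios centred on the median of all genes they were 34 and 41 of the 2551, so the balance turned. In the cluster led by Kcnj6 taken whole they were 15 and 77 of 2045 genes. They were 143 and 23 of 3581 genes when 20 UMIs were required in each library. The CBP-ablated sums held fewer UMIs, so a minimum in each library keeps a scarce gene more readily when it is higher there than when it is lower. Gpc5 was among the lowest, at 836 against 2571 CPM, a log2 ratio of −1.62 (−1.79 to −1.46). It was also lower in precursor nuclei (−2.15) and in the whole library (−3.49). The splicing regulator Rbfox1 had 523 against 1155 CPM (−1.14, −1.36 to −0.93), and Tafa2, a secreted protein gene, 133 against 409 (−1.62, −2.06 to −1.21). Grm7, a metabotropic glutamate receptor, was among the highest with 244 against 46.02 CPM (2.41, 1.90 to 2.94). These 3 genes moved the same way in precursor nuclei and in the whole library. There Rbfox1 had −1.17 and −1.56, Tafa2 −1.95 and −0.50, and Grm7 1.63 and 2.14.

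Several of the higher genes moved with the clusters the nuclei lay in. Celf4 had a log2 ratio of 1.71 (1.37 to 2.05) over all Kcnj6 and Nell2 nuclei and 0.48 over those in the 3 clusters, where it rested on 24 UMIs against 63. Of its 165 CBP-ablated UMIs 90 came from the 30 nuclei whose rule genes summed to 5 UMIs, which stood at 837 CPM, where those with a sum of 4 stood at 233 and those with 6 or more at 270. Shroom3, which shapes epithelial cells, went from 2.58 to 1.26, and Tenm4, an adhesion gene, from 2.46 to 0.82. The glutamate receptor gene Gria1 changed sign, from 1.20 (0.85 to 1.55) to −1.85, on 5 UMIs against 66. Grm7 had 1.99 in the 3 clusters, Gpc5 −1.33 and Rbfox1 −1.09. In that setting 8 genes were over 2-fold higher and 29 lower. Limited further to the cluster led by Kcnj6, with 19 CBP-ablated and 144 control nuclei, Gpc5 had −0.43 and Rbfox1 −0.49, so neither was past 2-fold there. Pbx3, a homeobox gene, went from 1.91 over all of the nuclei to 0.14 in the 3 clusters and −2.20 in the cluster led by Kcnj6. That last value rested on 1 UMI against 34. In the same cluster Grm7 had 1.60 on 9 UMIs against 22, Tafa2 −2.46 on 6 against 244, Tenm4 1.89 on 10 against 20 and Shroom3 1.19 on 4 against 13. At these counts the levels of Shroom3, 55.6 (15.2 to 142) and 24.5 CPM (13.0 to 41.8), could not be told apart, and those of Grm7, at 125 (57.2 to 238) and 41.4 (25.9 to 62.7), overlapped in their intervals.

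The precursor genes stayed within 2-fold of control in the CBP-ablated library. Of 13 tested, the intervals of 7 lay below 0 and that of 1 above, where 261 of all 2551 genes had intervals below 0 and 392 above. The median log2 ratio was −0.28 over all Kcnj6 and Nell2 nuclei and 0.03 over those in the 3 clusters, where all genes had 0.07 and 0.05. Of 8 pan-neuronal genes 1 was over 2-fold higher (Celf4) and 1 lower (Rbfox1), with a median of −0.15. That median was −0.57 over the nuclei in the 3 clusters and −0.37 over those in the cluster led by Kcnj6. It was −0.72 in precursor nuclei, where all genes had 0.09. Of 4 radial glia and stem cell genes 1 was higher (Shroom3), of 5 astrocyte genes 1 was lower (Gpc5), and of 11 glutamate receptor genes 1 was higher (Gria1). Of all 2551 genes 1.8% were over 2-fold higher and 1.37% over 2-fold lower, and 1 gene does not describe its list. Of 8 genes that the study named for its corresponding cluster, none was past 2-fold in either ablated library, with medians of −0.36 and 0.05. In the CBP-ablated library the intervals of 5 of the 8 lay below 0 and that of 1 above. With p300 ablated 3 lay below and 4 above. That list was chosen by the study on these same samples and is not independent evidence of a direction.

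In the p300-ablated library 4674 genes were tested against control, of which 0.471% were over 2-fold higher and 0.107% over 2-fold lower, 22 and 5 genes. They were 15 and 59 of 6031 genes when 20 UMIs were required in each library, a minimum that here keeps a scarce gene more readily when it is higher in control, whose sums held fewer UMIs. After subtraction of free RNA they were 43 and 8. Egfr was the lowest, at 159 against 464 CPM, a log2 ratio of −1.54 (−1.74 to −1.35). It was also lower in precursor nuclei (−1.23) and in the whole library (−1.73), and remained lower over the nuclei in the 3 clusters (−1.46). The cation channel gene Trpm3 had 55.0 against 146 CPM (−1.40, −1.75 to −1.06) and the laminin receptor subunit gene Itga6 had 34.1 against 78.6 (−1.20, −1.67 to −0.74). In the cluster led by Kcnj6 alone, Egfr had −1.14, Trpm3 −1.46 and Itga6 −0.90. In the CBP-ablated library Egfr stood at 328 CPM, a log2 ratio to the same control of −0.50 (−0.79 to −0.22). That direction turned within clusters, to 0.13 in the 3 main clusters and 0.74 in the cluster led by Kcnj6.

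Higher in the p300-ablated library were Col20a1, a collagen gene, at 48.6 against 13.4 CPM (1.86, 1.05 to 2.77), and Heg1, a membrane gene best known from the heart and vessels, at 110 against 33.6 (1.71, 1.20 to 2.26). Sumf2, related to the sulfatase-modifying enzyme, was the most deeply counted of these, with 621 UMIs against 100 and 265 against 95.9 CPM (1.47, 1.16 to 1.79). The immediate early gene Egr1 had 49.1 against 17.3 CPM (1.51, 0.78 to 2.31). Over the nuclei in the 3 clusters the log2 ratios were 1.96 for Col20a1, 1.65 for Heg1, 1.42 for Sumf2 and 2.08 for Egr1. In precursor nuclei and in the whole library Heg1 had 1.69 and 1.15, Sumf2 1.26 and 1.04, and Egr1 1.36 and 1.43. Col20a1 had 0.45 and 0.29 there.

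Precursor genes stayed within 2-fold of control in the p300-ablated library as well. Of 14 tested, the intervals of 9 lay above 0 and that of 1 below, where 525 of all 4674 genes had intervals above 0 and 392 below. The median log2 ratio was 0.35, where all genes had 0.02. Over the nuclei in the 3 clusters the median of the precursor list was 0.34. In the cluster led by Kcnj6 it was 0.16, and in precursor nuclei it was 0.16. Tnr, an extracellular matrix gene, had 5858 against 4575 CPM and Cacng4, an AMPA receptor auxiliary subunit, 854 against 616. Of 12 pan-neuronal genes none was past 2-fold, with a median of −0.10. Of 8 radial glia and stem cell genes 1 was over 2-fold higher (Shroom3, 1.14) and 1 lower (Egfr), where 0.471% and 0.107% of all 4674 genes were. Shroom3 was not past 2-fold in the 3 clusters (0.53) or in the cluster led by Kcnj6 (0.44). Crebbp had 351, 311 and 335 CPM in the Kcnj6 and Nell2 nuclei and Ep300 108, 155 and 122. Ep300 was thus not lower with p300 ablated than in control, although the study describes the recombined Ep300 allele as leaving no mature mRNA. UMIs came from 3′ tags of nuclear RNA, unspliced included, and were summed over the whole gene with no value for the floxed exon, so these levels do not check the genotypes.

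**Figure D5:**
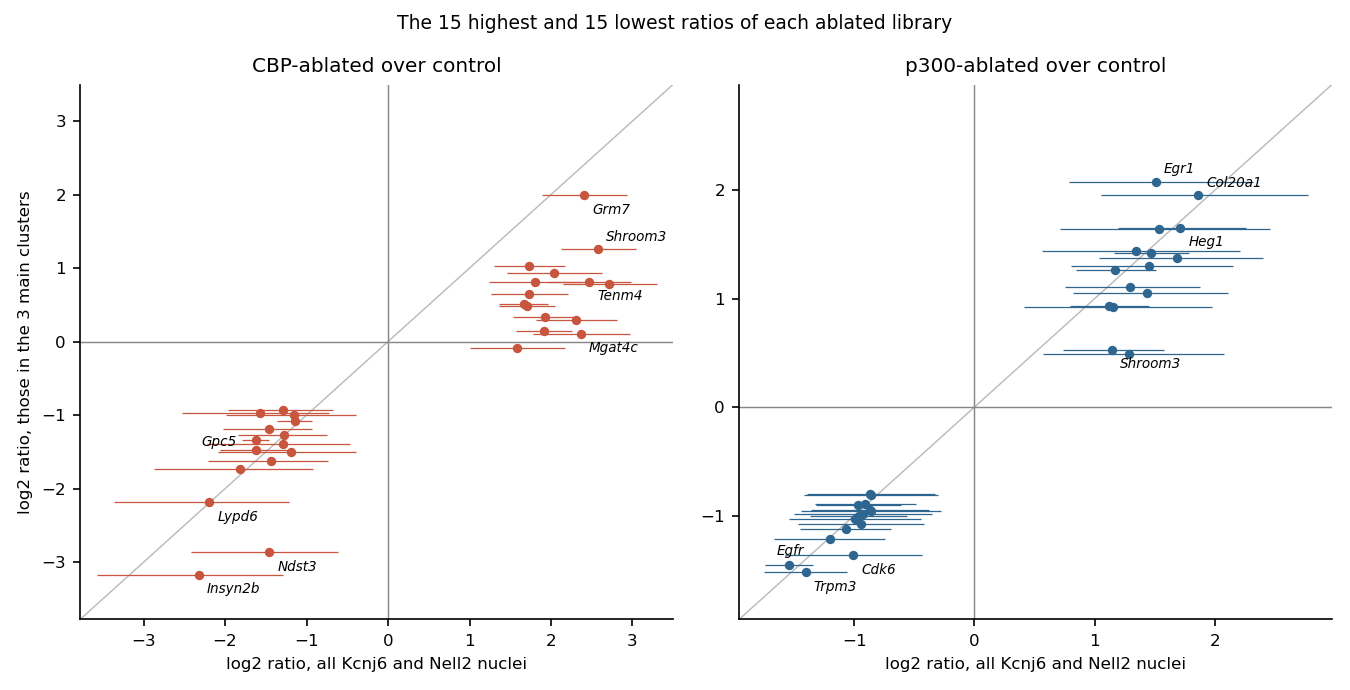
Log2 ratio to control of the 15 highest and 15 lowest genes of each ablated library, over all Kcnj6 and Nell2 nuclei (horizontal axis, with 95% intervals for counting error) and over those in the 3 main clusters (vertical axis), with a line where both are equal. Tenm4 lies far below the line in the CBP-ablated library (2.46 and 0.82), while Egfr lies near it in the p300-ablated library (−1.54 and −1.46).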

How the data were processed

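The authors aligned reads of single-nucleus libraries to GRCm38 (mm10) with Cell Ranger 3.1 and deposited raw counts: the number of UMIs per gene and nucleus, with exonic and intronic reads counted. Their further tools were FastQC 0.11.9 and Seurat 2.3.4. All 12549 deposited nuclei and 30559 genes were used, in libraries of 16312170 (control), 12748336 (CBP-ablated) and 18876682 UMIs (p300-ablated). The members and gene lists were chosen with earlier results of these data known.

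For each class of nuclei in a library, summed UMIs per gene were scaled to CPM and compared as log2 ratios. A sum of 0 was set to 3 UMIs, could never count as the higher side, and gave no ratio where both sums were at or under 3. Intervals were exact Poisson for sums, Clopper-Pearson for shares, Newcombe for differences of shares and conditional binomial for ratios, all at 95%. Genes needed at least 100 UMIs in the sums compared. The 22 genes of the rule, and 3 more against precursor nuclei, were left out of counts and lists. With 1 library per condition no p-value was computed, and separate cultures were pooled within each library. The sums were tested on simulated data.

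Genes were named when they belong to the rule, to the marker lists or to the genes the study gave its corresponding cluster, or had the 15 largest or smallest ratios within members, the 15 largest against all other nuclei, or the 10 largest or smallest against precursor or neuron nuclei. The floxed genes, the leading genes of clusters, A2m and the genes named as lower than in precursor nuclei with both classes limited to clusters fall outside this rule and were picked with their values in view.

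Clusters came from Seurat 5.3.0 under R 4.3.3 (Matrix 1.6.5, 1795 variable genes, 20 principal components, 30 neighbours, resolution 0.6, seed 1). Doublets were scored with Scrublet in scanpy 1.11.5 and called at 0.8% per 1000 nuclei. Python 3.11.15, numpy 2.4.6, scipy 1.17.1, pandas 2.3.3 and matplotlib 3.10.9 were used. Coordinates are those of GENCODE M21. The alternatives were other UMI minimums, exclusions dropped, thinning, no called doublets, other denominators, 10% of free RNA subtracted, means over nuclei, centred ratios and other gene minimums; restrictions to clusters were added after the data were seen.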

Additional observations from a re-analysis of the deposited data

Results flagged for a closer look

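The share of Kcnj6 and Nell2 nuclei moved in opposite directions in the 2 ablated libraries, by −2.47 percentage points from control in the CBP-ablated and by 5.96 points in the p300-ablated library. The difference was not tested, since each condition had 1 library and both values rest on the same control. The groups hold too few libraries for a sample to be set against its replicates.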

How the results depend on the processing

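The p300-ablated library had the highest and the CBP-ablated library the lowest share in each of the 10 alternatives. The values in parentheses are the difference of share, CBP-ablated minus control, and the difference of share, p300-ablated minus control, in percentage points. In the order control, CBP-ablated, p300-ablated, the share was 9.36%, 5.44% and 17.4% with a minimum of 3 UMIs (−3.92 and 8.03) and 3.13%, 1.26% and 6.30% with a minimum of 6 (3.17 for p300-ablated). It was 7.49%, 4.74% and 14.4% with Gpr149 nuclei kept. Thinning, which leaves out nuclei under 3000 UMIs, gave 2.36% and 10.1% in the ablated libraries (−3.74 and 4.01), leaving out nuclei with astrocyte UMIs gave 7.49% in control (−3.96 and 4.51), and the whole cluster led by Kcnj6 was 0.961% and 9.17% (−5.22 and 2.98). The rule counts UMIs, so depth limits which nuclei it finds.

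Counts of genes over 2-fold moved more. Against precursor nuclei, 84 were higher and 10 lower after subtraction of free RNA, 21 lower at the minimum of 6, 1 lower without doublets, and 4 lower with a precursor minimum of 8 UMIs. Limited to the 3 clusters with most precursor nuclei, 15 were higher and 13 lower, with both classes limited 4 were lower, limited to the cluster led by Kcnj6 38 were lower, and outside it 0. Against Gpr149 nuclei the higher genes numbered 15 after subtraction, 13 at the minimum of 6, 10 by means over nuclei, 12 without doublets, 2 (with 66 lower) in the 3 clusters, 26 (with 72 lower) in the cluster led by Kcnj6 and 11 outside it. With only the Gpr149 nuclei limited to the 3 clusters 60 were higher and 0 lower, and with both classes limited 1 was lower. Against neuron nuclei of the cluster led by Dlx6os1, 496 were higher.

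The number of genes tested changed with most settings. For the CBP-ablated library against control the counts higher and lower were 46 and 35 of 2551 in the main setting. They were 17 and 14 of 1208 at the minimum of 6, and 13 and 13 of 1247 with at least 200 UMIs. With 20 UMIs in each library they were 143 and 23 of 3581. In the cluster led by Kcnj6 taken whole they were 15 and 77 of 2045, and with centred ratios 34 and 41 of 2551. The higher count was 8 of 1902 in the 3 clusters and 14 of 975 for nuclei of the rule in the cluster led by Kcnj6, and 23 of 2376 were lower without doublets. For the p300-ablated library 22 were higher and 5 lower of 4674 in the main setting, and 43 and 8 of 4673 after subtraction. With at least 200 UMIs 8 were higher and 3 lower of 2832. In the cluster led by Kcnj6 12 of 2522 were higher. The lower count was 8 of 3012 at the minimum of 6, 9 of 4674 by means over nuclei and 59 of 6031 with 20 UMIs in each library. It was 12 of 5340 with Gpr149 nuclei kept and 9 of 4128 in the cluster led by Kcnj6 taken whole. Tenm3 in the CBP-ablated library turned to −0.30 in that whole cluster, and A2m against Gpr149 nuclei turned to −0.84 at the minimum of 6 and, in the CBP-ablated library, to −2.11 over the nuclei in the 3 clusters (2 UMIs). Egfr in the CBP-ablated library turned from −0.50 to 0.13 there. Gria1 in the CBP-ablated library turned from 1.20 to −1.85 over the nuclei in the 3 clusters. Beyond the genes tested, the nuclei kept and the scaling, the cause of these shifts was not tested. Restrictions of either class to clusters were chosen after seeing the data. No paired analysis was possible because each condition had 1 library.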
